A study of Mus musculus with 6 samples.

Results

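The accessible chromatin of AML1/ETO 9a (AE9a) leukemia cells from vehicle-treated mice was described in the 3 oil libraries, out of 6 libraries in the series, over all 175929 peaks of the deposited table. The libraries were chosen by their treatment label alone, and the 3 tamoxifen libraries entered no value. AE9a is a truncated product of the AML1/ETO fusion, which joins the DNA-binding domain of RUNX1 to the repressor ETO, and it causes acute myeloid leukemia in mice. All cells were Usp18+/f UBCER-Cre cells, that is, they carried 1 floxed Usp18 allele and a Cre recombinase, expressed in all tissues, that is active only with tamoxifen, so the oil group kept both alleles. Fetal liver cells were transduced with a retrovirus carrying AE9a and GFP and were passaged through irradiated C57BL/6 recipients. Sick recipients received corn oil, and Lin- c-Kit+ GFP+ cells were sorted from the spleen at 3 days after the first injection. Open chromatin was then read by ATAC-seq, which tags DNA that a transposase can reach. The labels do not tell whether each library came from its own mouse. The study's methods describe cells sorted from separate mice per treatment, of which 1 set was used for ATAC-seq, but do not tie a library to a mouse, so each SD below is over libraries (n = 3) and may be technical.

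In an ATAC-seq landscape, active promoters are open as nucleosome-free regions next to the transcription start site (TSS), and enhancers appear as open regions far from any start site. Promoters of genes used by every cell are open in most tissues, whereas distal elements differ by cell type. In myeloid progenitors, RUNX1, PU.1 (encoded by Spi1), GATA2 and CEBP factors bind many such elements. KIT is the receptor for stem cell factor on progenitors and mast cells, and MPO is the myeloperoxidase of primary granules in cells that have entered the granulocytic path.

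The regions at the 5 marker genes Kit, Runx1, Spi1, Gata2 and Mpo, which are stem and myeloid progenitor genes, are shown first. The cells were sorted as c-Kit+, so the Kit locus is no separate check of their identity. Each line gives up to 200 bases at the midpoint of the peak nearest the start site (Kit, Runx1 and Gata2), without transcribed bases, or of the highest distal peak, more than 3000 bp from a start site. Sequences are from the plus strand of the mm10 (GRCm38) reference, and capitals mark matches to any of the 18 motif spellings searched, given with the motif results below.
Kit start site (chr5:75574874-75574986): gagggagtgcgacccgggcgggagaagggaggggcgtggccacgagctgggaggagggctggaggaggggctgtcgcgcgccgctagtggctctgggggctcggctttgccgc
Kit distal (chr5:75624395-75624594): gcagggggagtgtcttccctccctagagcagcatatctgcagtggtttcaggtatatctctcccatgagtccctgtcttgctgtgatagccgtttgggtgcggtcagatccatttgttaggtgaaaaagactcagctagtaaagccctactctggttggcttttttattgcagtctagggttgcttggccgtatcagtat
Runx1 start site (chr16:92826075-92826256): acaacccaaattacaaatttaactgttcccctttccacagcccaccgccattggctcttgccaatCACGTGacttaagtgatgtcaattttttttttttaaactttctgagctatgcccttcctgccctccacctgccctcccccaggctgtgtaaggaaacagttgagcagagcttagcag
Runx1 distal (chr16:92715652-92715851): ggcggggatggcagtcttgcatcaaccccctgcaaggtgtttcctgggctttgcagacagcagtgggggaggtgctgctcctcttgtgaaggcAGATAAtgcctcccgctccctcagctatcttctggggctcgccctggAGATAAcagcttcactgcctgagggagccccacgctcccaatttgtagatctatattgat
Spi1 distal (chr2:91101433-91101632): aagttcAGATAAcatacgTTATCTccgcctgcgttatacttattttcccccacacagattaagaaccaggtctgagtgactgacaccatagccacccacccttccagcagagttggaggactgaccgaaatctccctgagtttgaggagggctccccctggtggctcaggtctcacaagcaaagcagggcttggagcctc
Gata2 start site (chr6:88198540-88198663): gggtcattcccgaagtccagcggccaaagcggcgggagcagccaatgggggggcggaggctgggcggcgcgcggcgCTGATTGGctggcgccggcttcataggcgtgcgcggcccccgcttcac
Gata2 distal (chr6:88189688-88189887): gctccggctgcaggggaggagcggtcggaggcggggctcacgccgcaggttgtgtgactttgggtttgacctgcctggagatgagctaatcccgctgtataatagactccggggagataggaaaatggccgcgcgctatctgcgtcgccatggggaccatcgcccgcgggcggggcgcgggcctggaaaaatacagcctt
Mpo distal (chr11:87802692-87802891): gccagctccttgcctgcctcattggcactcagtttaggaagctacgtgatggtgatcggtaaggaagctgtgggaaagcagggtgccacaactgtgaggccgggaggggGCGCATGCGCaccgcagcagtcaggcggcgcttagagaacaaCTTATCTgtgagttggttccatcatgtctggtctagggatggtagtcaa
The windows at the Kit and Gata2 start sites were 75.2% and 74.2% G+C and held 11 and 16 CpG dinucleotides, whereas the Runx1 start-site window was 46.7% G+C with 2 CpG. The distal windows of Runx1 and Spi1 each held 2 AGATAA matches, the core that GATA factors read. The Mpo window held the GATA spelling AGATAAG once and the NRF1 spelling GCGCATGCG on both strands of 1 overlapping stretch. The Runx1 start-site window held the E-box CACGTG and the Gata2 start-site window the NF-Y spelling. No window held the RUNX spelling TGTGGT, which says only that these letters are not in these bases.

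Library size, in units of 1000000 tags, was 58.2, 66.4 and 74.7 for oil 1, oil 2 and oil 4, of which 30.1%, 29.5% and 28.2% lay in peaks. Levels are given as tags per kb of peak per 1000000 total tags. Across peaks, the log2 levels of each pair of libraries had a Pearson r of 0.977 (n = 175929 peaks, which share regions and depth). The median peak held 45, 51 and 57 tags, so counting error made up much of the spread at low peaks. In the lowest 5% of peaks by level the median CV over libraries was 18.7%, and the inverse square root of the mean tags was 22.6%. In the highest 5% these were 6.83% and 4.11%. The 2 measures are not like for like, since the median of a CV taken from 3 libraries tends to lie below the true CV. The table keeps at most 3 tags per position, and the raw tags of oil 4 over oil 1 went from 1.30 in the lowest 5% to 1.13 in the highest, against 1.28 for total tags. The ratio had already fallen to 1.23 in bin 17 of 20, where the median peak held 152 tags, and oil 4 also had the lowest share of tags in peaks. The part of the limit per position in this was not tested. Oil 4 was the lowest of the 3 libraries at most of the highest values below. No group was compared with another and no p-value is given, since 3 paired libraries cannot give an exact two-sided p below 0.25.

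The landscape held few highly open regions among many barely open ones. The lowest peak had a level of 0.218, the median peak 2.60 and the highest 113.7, and 90% of peaks lay between 1.14 and 29.3. Peaks had a median width of 250 bp and covered 49.9 Mb, or 1.88% of the known bases of the genome. The top 1% of peaks (1759) took 7.98%, 7.68% and 7.36% of the tags in peaks in oil 1, oil 2 and oil 4. The top 10% took 45.8%, 45.1% and 43.6%, and the lower 50% of peaks took 15.2% on average. Of the top 1% of peaks, 88.3% were annotated as promoter-TSS, a class of 11.5% of all peaks. Peaks that the authors' merged list credits to the oil peak list (88.8%) had a median level of 2.93, and the 19718 peaks not credited to it had 1.32. The latter were nonetheless counted in the oil libraries, so the table is not a list of peaks called in oil alone.

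The 10 highest peaks all lay in Rn45s, the 45S ribosomal RNA precursor gene, on chromosome 17. The highest of them (chr17:39844834-39845034) had levels of 125.5, 112.9 and 102.6 in oil 1, oil 2 and oil 4. Its raw tags were 1467, 1506.5 and 1540, nearly the same in libraries of unequal depth. Over all 11 Rn45s peaks, the raw tags of oil 4 over oil 1 were 1.02. Next came Pisd-ps3, a pseudogene annotated on an unplaced sequence, at 82.1 ± 8.61, and Hjurp, a chaperone of the centromeric histone CENP-A, at 80.8 ± 8.02. Reads of near-identical copies cannot be told apart at Rn45s and Pisd-ps3.

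Promoters were both the most open class and the class with the most peaks per base (the plots of level and of density by annotation class). Median levels of promoter-TSS peaks, which lie from 1000 bp upstream to 100 bp downstream of a start site, were 17.1, 17.1 and 15.9 in oil 1, oil 2 and oil 4. The 5' UTR class followed with 9.60, 9.74 and 9.22. Intergenic peaks had 2.33, 2.34 and 2.33, and intronic peaks 2.43, 2.41 and 2.41. Promoter-TSS peaks stood 7.14 ± 0.281 times above intergenic peaks within each library, a gap far larger than the spread of the libraries. Introns and intergenic DNA differed by less than 0.1 in the medians of 75937 and 64076 peaks. Exonic peaks (2.53 ± 0.00566), peaks at transcript ends (2.46 ± 0.0176) and 3' UTR peaks (2.24 ± 0.0220) lay in the same low range. Non-coding transcripts stood slightly above them at 3.42 ± 0.0687.

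**Figure D1:**
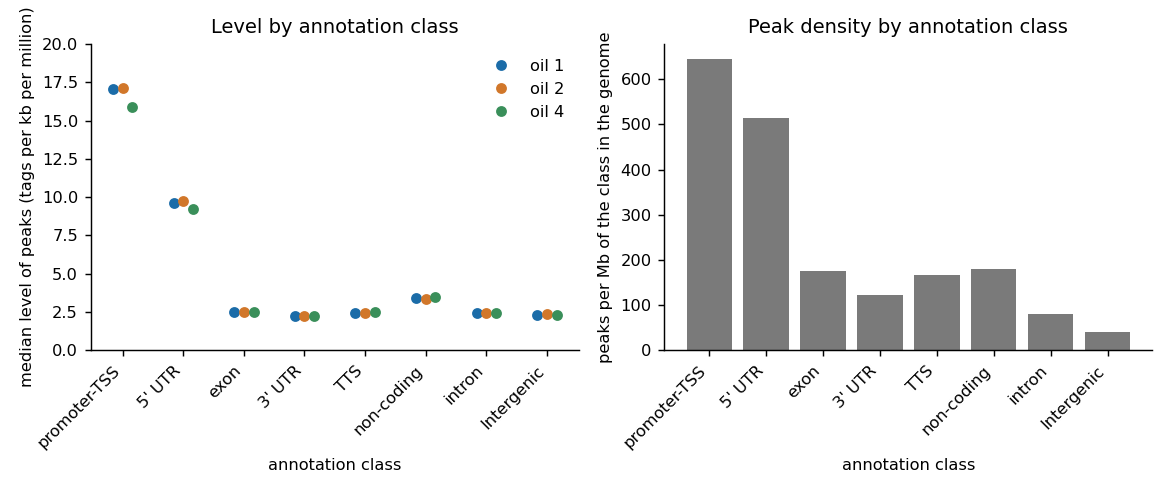
Left, median level of the peaks of each annotation class (tags per kb per 1000000, linear axis from 0), 1 point per oil library. Right, peaks per Mb of the genome that falls in the class. Promoter-TSS peaks lie at 15.9 to 17.1 and 645.55 peaks per Mb, and intergenic peaks at 2.33 to 2.34 and 40.8 peaks per Mb.

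Promoter-TSS DNA made up 1.19% of the genome but held 11.5% of peaks and 34.5%, 34.2% and 32.9% of the tags in peaks of oil 1, oil 2 and oil 4. Intergenic DNA made up 59.2% of the genome and held 36.4% of peaks and 25.7% ± 0.322 of tags. Introns held 43.2% of peaks and 31.5% ± 0.415 of tags on 36.1% of the genome. Relative to genome share, peaks were thus 9.72-fold over in promoters, 7.75-fold over in 5' UTRs, near even in introns (1.195) and under in intergenic DNA (0.615). Only 4.37% of intronic and 4.19% of intergenic peaks belonged to the top 10% of all peaks, against 49.6% of promoter-TSS peaks.

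Within genes, peaks near the start site were the more open. Introns within 3000 bp of a start site had a median of 3.07 ± 0.0260, and those farther away 2.27 ± 0.0168. First introns held 41.6% of all intronic peaks, but beyond 3000 bp their median of 2.25 ± 0.0313 was no higher than the 2.28 ± 0.0101 of introns numbered 4 or later. First exons stood at 7.85 ± 0.0971 and exons numbered 4 or later at 2.16 ± 0.0122. The 77 first-exon peaks beyond 3000 bp from a start site kept a median of 8.76 ± 0.0690.

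Among distal peaks, the table's detailed annotation set a few small classes apart, a division made after the values were seen. The 108 distal peaks at tRNA genes, which RNA polymerase III transcribes, had medians of 17.96, 18.8 and 16.4. Distal CpG islands (1111 peaks) had 9.41, 9.28 and 8.98, and 47.9% of them exceeded a level of 10. Peaks in retroelements were low, at 2.10 ± 0.0307 for SINE (15654 peaks), 2.07 ± 0.0223 for LINE (4080) and 2.08 ± 0.0138 for LTR elements (11200). Repeats classed as rRNA (78 peaks) reached 5.06 ± 0.262 and satellites (224) 3.06 ± 0.0967, and reads of their copies cannot be told apart.

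The level fell steeply over the first 1000 bp from a start site and was flat beyond 3000 bp. Peaks within 100 bp had medians of 29.0, 28.6 and 25.96 in oil 1, oil 2 and oil 4. Those at over 100 and up to 500 bp had 11.9, 12.2 and 11.5, and those up to 1000 bp had 4.12, 4.13 and 4.04. Up to 3000 bp the median was 2.399 ± 0.0164, and in the 5 wider bins beyond, to over 500000 bp, it stayed between 2.18 and 2.31. Peaks within 100 bp thus stood 12.1 ± 0.688 times above distal peaks. Beyond 3000 bp it was the number of peaks that fell with distance, from 130.1 per Mb at up to 10000 bp to 74.95 at up to 50000 bp, 35.3 at up to 100000 bp and 1.66 beyond 500000 bp. Within 100 bp the density was 1691 peaks per Mb. The share of peaks above a level of 10 went from 75.8% within 100 bp to 10.6% between 3000 and 10000 bp and 6.48% between 100000 and 500000 bp. Distal peaks were 69.6% of all peaks.

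Upstream and downstream sides were not alike (the profile around start sites). The level was highest from 150 to 100 bp upstream, at 34.7, 33.7 and 30.6, while most peaks (4140) had their midpoint in the 50 bp just upstream of the start. Downstream, the median fell to 8.22, 9.00 and 8.63 at 100 to 150 bp, and rose again to 17.9, 18.1 and 16.4 at 200 to 250 bp. Each library showed both the low and the second maximum. At 200 to 250 bp the downstream side was the higher, with 17.5 ± 0.909 against 15.5 ± 0.506 upstream. Between 500 and 1000 bp it had 4.51 ± 0.112 against 3.44 ± 0.0229.

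**Figure D2:**
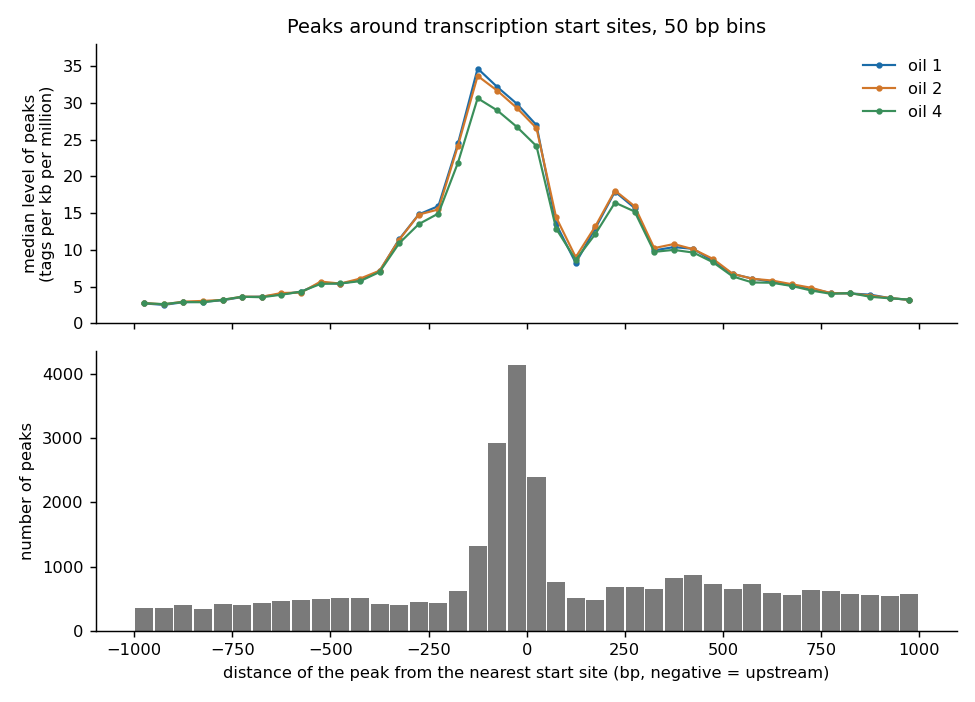
Top, median level of peaks (tags per kb per 1000000) in 50 bp bins of distance from the nearest start site, 1 line per oil library. Bottom, number of peaks per bin. The lines peak at 30.6 to 34.7 between 150 and 100 bp upstream, fall to 8.22 to 9.00 at 100 to 150 bp downstream and rise to 16.4 to 18.1 at 200 to 250 bp downstream.

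The marker genes were open at their start sites with the exception of Mpo. The Kit start-site peak (chr5:75574836-75575113, promoter-TSS, 13 bp upstream) had levels of 42.7, 42.4 and 40.2 in oil 1, oil 2 and oil 4. A second peak in intron 1, at 784 bp, had 34.5, 34.8 and 31.4. Both lay well above the median of 23.9 over the 14458 genes with a start-site peak, meaning a peak within 1000 bp of the start. In percentiles of those genes, taken in each library, Kit stood at 80.3 ± 2.26. Its highest distal peak lay in intron 7 (chr5:75624343-75624648, 49504 bp downstream), with 21.5, 22.9 and 21.6. The next, intergenic and at -114306 bp, had 22.7, 19.4 and 20.0. The ranges of these 2 distal peaks over the libraries overlapped.

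Runx1, which encodes the protein whose DNA-binding domain is part of the AML1/ETO fusion, was covered by more peaks than any other gene, 269. Its distal promoter peak (chr16:92826019-92826295, 83 bp upstream) had levels of 20.8, 19.9 and 18.1. The proximal promoter peak (chr16:92697303-92697525, 85 bp upstream) had 53.5, 49.9 and 44.5, the higher of the 2 in every library. Of the 269 peaks 220 were intronic, and only 19 exceeded a level of 10, so most of the locus carried low peaks with a median of 2.27. The highest distal peak (chr16:92715592-92715913, intron 2) had 37.3, 31.6 and 31.0. Another in the same intron (chr16:92822111-92822332, 3853 bp downstream) had 31.6, 31.5 and 30.1. Summed over distal peaks at most 100000 bp away, Runx1 had 261.9, 255.05 and 262.1 tags per 1000000, rank 1 of 20102 genes in each library. A peak is credited to the nearest start site, and the peaks of Runx1 spanned 95.9 kb in summed width.

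Spi1 was compact, with 6 peaks in all. At its start site (chr2:91096621-91096829) the levels were 24.9, 21.1 and 22.3, and at a peak in intron 2 (chr2:91101422-91101644, 4855 bp downstream) they were 26.7, 25.98 and 22.6. The ranges of the 2 peaks overlapped. An intergenic peak 13160 bp upstream was far lower, with 2.06, 1.65 and 1.49.

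Gata2, by contrast, was most open away from the start site. The start-site peak (chr6:88198539-88198741, 24 bp upstream) had 24.3, 25.6 and 23.9. An intergenic peak (chr6:88189688-88189888) had 43.6, 41.5 and 36.8, above the start-site peak in every library. Its distance of -4103 bp is taken from another annotated Gata2 start, and the start-site peak lies farther from it. A region in an intron, 4589 bp downstream of the start at the start-site peak, had 23.3, 21.5 and 20.7. Runx1, Spi1 and Gata2 stood at the start-site percentiles 44.2 ± 0.547, 48.5 ± 2.72 and 51.15 ± 1.65, near the middle of all genes with such a peak. For Runx1 this rests on the peak 83 bp from a start. The promoter peak 85 bp from the other start, at 49.3, was above 48.6, the level that 90% of genes with a start-site peak did not exceed. Summed over all peaks within 3000 bp of a start site, Runx1 and Gata2 went to percentiles 99.85 and 99.1, and Spi1 stood at 47.8.

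Mpo had no peak within 1000 bp of its start site. It had 7 peaks, none above a level of 10, and the highest (chr11:87802655-87802929, intron 12 of 13, 9008 bp downstream) had 5.47, 5.53 and 4.92. The next, annotated at the end of another transcript, had 4.82, 4.91 and 4.56. The sorted cells thus carried open Kit, Runx1, Spi1 and Gata2 regions and an Mpo locus without a start-site peak. The highest Mpo peak, with a mean of 5.31, stood at percentile 70.9 of all peaks. Accessibility is not expression, and a locus without a peak can still be transcribed at a low level or in a minor fraction of the cells.

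**Figure D3:**
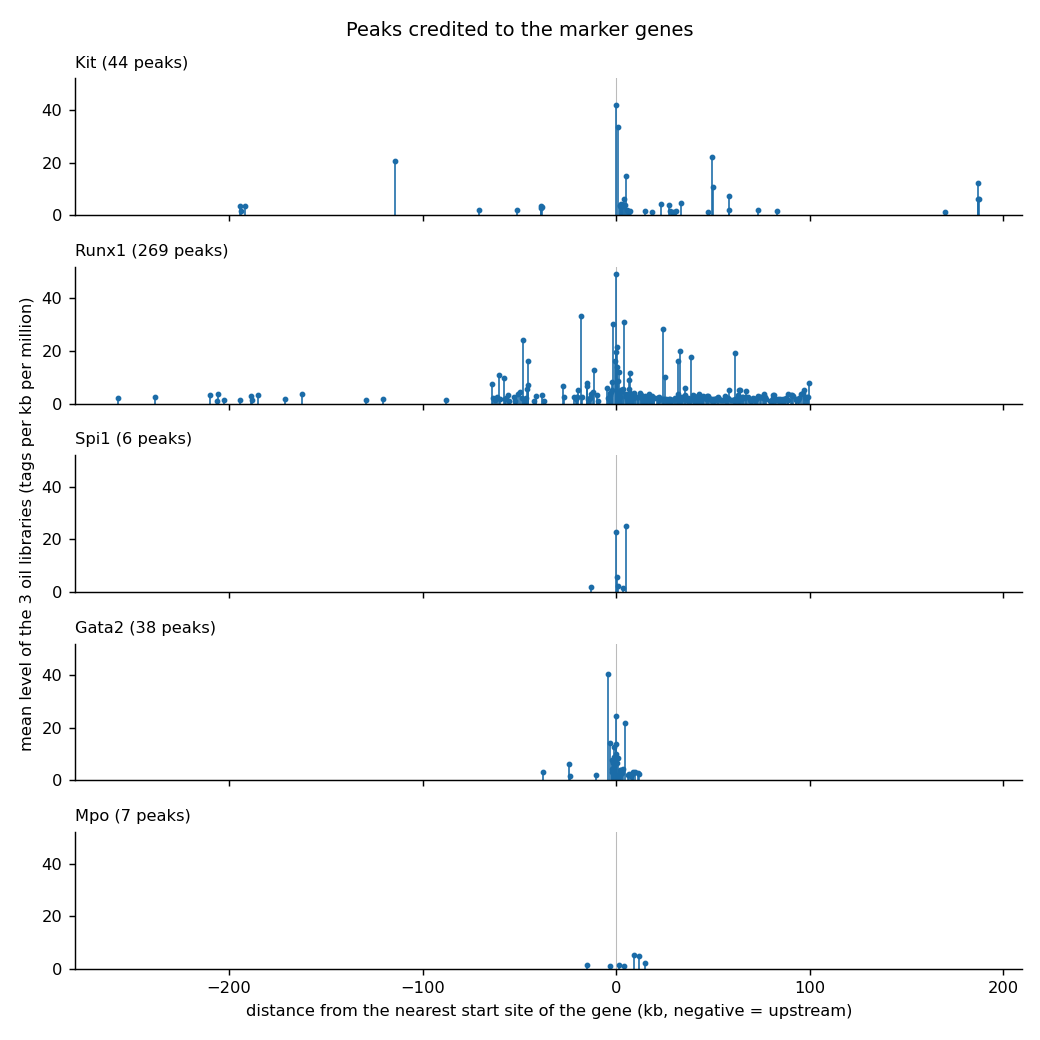
Each stem is 1 peak credited to the gene named above it. The horizontal axis gives the distance from the gene's nearest start site in kb and the vertical axis the level as mean of the 3 oil libraries (tags per kb per 1000000). Runx1 shows a carpet of low peaks with isolated high ones up to 49.3, Gata2 is highest at -4103 bp with 40.6, and no Mpo peak exceeds 5.31.

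Across the 20102 genes that were nearest to some peak, 71.9% had a start-site peak. Of 21000 protein-coding genes of the reference annotation, 65.4% had some peak within 1000 bp of an annotated start site and 48.9% one above a level of 10. By the table's gene types, 77.0% of protein-coding genes had a start-site peak, with medians of 26.5, 26.2 and 23.9. Non-coding RNA genes had one in 43.9% of cases, at 5.58, 5.55 and 5.25. A gene was credited with 6 peaks at the median, and 155 genes with 50 or more. HOMER credits a peak to the nearest start site only, which is not evidence of regulation, and at shared promoters it leaves 1 gene without a peak, as for Sdha and Snrpd3 in the housekeeping list.

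Genes of general cell function had the most open start sites of the 15 gene lists (the plot of start-site peaks by gene list). Housekeeping genes had a start-site peak in 18 of 20, or in all 20 when any peak at their start was counted, with a median level of 43.9, 40.8 and 37.4. Among them, Pgk1, a glycolytic kinase, had 53.7 ± 4.18 and Polr2a, the largest subunit of RNA polymerase II, 53.4 ± 3.49. Reep5 (25.7 ± 1.48) and Rab7 (14.5 ± 0.605), of intracellular membranes, were the lowest by the peak nearest a start. The highest Rab7 peak within 1000 bp of a start had 44.3. Cell cycle genes were alike, with a start-site peak in 16 of 16 and medians of 43.5, 40.3 and 37.2. The replication clamp Pcna (54.0 ± 3.53) and the helicase subunit Mcm5 (53.1 ± 2.51) led them. The mitotic kinases Bub1 (29.5 ± 2.59) and Plk1 (27.4 ± 1.62) came last. In both lists every credited start-site peak exceeded a level of 10, as did 66.9% of all start-site peaks.

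Stem and progenitor transcription factors all had a start-site peak, 20 of 20, but over a wide range. Their median was 23.9, 21.4 and 20.8, close to that of all genes. Zfpm1, which encodes the GATA1 partner FOG1, reached 59.1 ± 4.42 and the homeobox factor Hhex 42.5 ± 3.802. Gfi1, a repressor needed by stem cells and granulocytes, had only 1.72 ± 0.458 at the peak nearest its start, and Mecom, which encodes EVI1, 1.39 ± 0.201. These factors also had the highest median of distal tags among the lists, 12.4 tags per 1000000, against 2.53 over all genes. Of 17 progenitor receptors and surface proteins 12 had a start-site peak (70.6%, against 71.9% of all genes). A level of 10, exceeded by 66.9% of all start-site peaks, was exceeded by 4 of them. Kit led, followed by Itga4, the alpha chain of the adhesion receptor VLA-4, at 33.7 ± 1.05. The SLAM receptors Cd48 (1.36 ± 0.550) and Slamf1 (1.14 ± 0.313) were lowest, and Csf3r, Ly6a, Cd33 and Ptprc were among those without a start-site peak.

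Genes of granules and mature cells mostly had a low start-site peak or none. Of 12 primary granule and granulocyte progenitor genes 7 had a start-site peak (58.3%, against 71.9% of all genes). A level of 10, exceeded by 66.9% of all start-site peaks, was exceeded by 2, both of broad use: Calr, a chaperone of the endoplasmic reticulum, at 64.4 ± 6.04, and Srgn, a proteoglycan of many granule types, at 26.3 ± 0.895. Elane, neutrophil elastase, had 1.48 ± 0.0579 and Nkg7 1.01 ± 0.246, and Mpo, Ctsg, Ms4a3, Clec12a and Igsf6 had none. Of 18 mature myeloid genes 7 had a start-site peak (38.9%) and 1 exceeded a level of 10, the lysosomal Cd68 (14.4 ± 0.897). Fcgr1, an Fc receptor, had 7.60 ± 0.423, Itgam (CD11b) 1.77 ± 0.0501 and Adgre1 (F4/80) 1.43 ± 0.153. The neutrophil genes S100a8, S100a9, Camp, Ltf and Mmp8 and the macrophage genes Csf1r, Mrc1, Marco, Clec7a, Ly86 and Vcam1 had no start-site peak.

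Of 13 erythroid genes 13 had a start-site peak, against 71.9% of all genes, although their median was only 6.63, 5.38 and 5.71. A level of 10, exceeded by 66.9% of all start-site peaks, was exceeded by 5 of them. Tspan33, a tetraspanin, had 35.2, 32.9 and 30.7. The water channel Aqp1 (1.88 ± 0.703) and the anion exchanger Slc4a1 (1.48 ± 0.494) were the lowest of the list. Of 12 megakaryocyte genes 8 had a start-site peak (66.7%, near the share of all genes), led by the platelet glycoproteins Gp1ba (22.9 ± 1.39) and Gp5 (17.3 ± 1.32). Treml1 (2.14 ± 0.438, but 11.6 at its highest peak within 1000 bp of a start) and Gp9 (1.34 ± 0.0998) were low, and Gp6, Ppbp, Vwf and Clec1b had none. Of 11 mast cell and basophil genes 8 had a start-site peak (72.7%, near the 71.9% of all genes), 2 of them above a level of 10. Il1rl1, the IL-33 receptor ST2, had 36.9, 34.5 and 30.4, and Hdc, which makes histamine, 18.9, 17.0 and 15.9. The mast cell proteases Cma1 (1.30 ± 0.142) and Tpsab1 (1.04 ± 0.123) were low, and Mcpt8, Prss34 and Mrgprb2 had none.

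Lymphoid genes had low start-site levels. T cell genes had a start-site peak in 9 of 16 (56.25%, against 71.9% of all genes). Only Gata3 (23.2 ± 1.07), a factor that progenitors and mast cells also use, exceeded a level of 10, as did 66.9% of all start-site peaks. Cd3g had 1.47 ± 0.276 and Cd5 0.902 ± 0.213, and Cd3e, Cd3d, Cd4, Cd8a, Cd8b1, Cd2 and Cd28 had none. Of 12 B cell genes 5 had a start-site peak (41.7%) and none of the nearest peaks was above 10, the highest being the complement receptor Cr2 (8.57 ± 0.332) and Cd79a (2.98 ± 0.273). Fcer2a (1.69 ± 0.0780) and the B cell factor Ebf1 (0.777 ± 0.203, but 12.4 at its highest peak within 1000 bp of a start) were lowest. Cd79b, Ms4a1, Pax5, Cd22, Vpreb1 and Igll1 were among those without a start-site peak. Of 9 NK cell genes only the T-box factors Eomes (2.04 ± 0.510) and Tbx21 (1.91 ± 0.317) had a start-site peak (22.2%). In bulk samples, openness in few cells and low openness in all cells cannot be told apart.

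Lists of other tissues were set beside the blood lists. Neuron genes had a start-site peak in 10 of 16 (62.5%, against 71.9% of all genes) with a median of 4.25 ± 0.167. They ran from the synaptic vesicle protein Syp (21.1 ± 2.75) and the receptor subunit Grin1 (17.7 ± 0.551) to Gad1 (1.94 ± 0.305) and the splicing factor Rbfox3 (1.12 ± 0.149). Liver genes had one in 2 of 14 (14.3%), Apoa2 (5.82 ± 0.199) and Ahsg (1.97 ± 0.409). Skeletal muscle genes had one in 7 of 12 (58.3%), from Mylpf (53.1 ± 3.22) and Myod1 (13.8 ± 0.422) to Myog (2.01 ± 0.137) and Ckm (1.63 ± 0.265). The medians of the T cell, B cell and NK cell lists, 2.03 ± 0.253, 1.97 ± 0.244 and 1.97 ± 0.232, lay below the neuron, liver and skeletal muscle medians of 4.25, 3.89 and 2.38. The primary granule and mature myeloid medians, 1.77 ± 0.345 and 2.07 ± 0.0521, were in the same low range as the lymphoid ones. Each list median covers only the genes with a start-site peak, and the shares of such genes differed widely between lists. The NK cell and liver medians rest on 2 genes each.

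The order within a list depends on which peak is taken, since the values above are for the peak nearest a start site. With the highest peak within 1000 bp of any of the gene's starts, Rab7 had 44.3 in place of 14.5, Ebf1 12.4 in place of 0.777, Treml1 11.6 in place of 2.14 and Apoa2 18.7 in place of 5.82. Cd48 then had 6.43, Gad1 3.68, Cma1 3.55 and Fcer2a 2.69. Mitf, with 48.8 in place of 7.92, then led the mast cell list over Il1rl1. Epor (42.96 in place of 4.81), Tal1 (23.9 in place of 4.65) and Ikzf1 (19.2 in place of 1.77) were among others that moved. By this measure the members above a level of 10 went from 14 to 16 among stem and progenitor factors, from 4 to 5 among progenitor receptors, from 5 to 7 among erythroid genes, from 4 to 5 among megakaryocyte genes and from 2 to 3 among mast cell genes. Among B cell and liver genes they went from 0 to 1 each, and in the other lists but the housekeeping genes, with 20, they were the same in number.

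**Figure D4:**
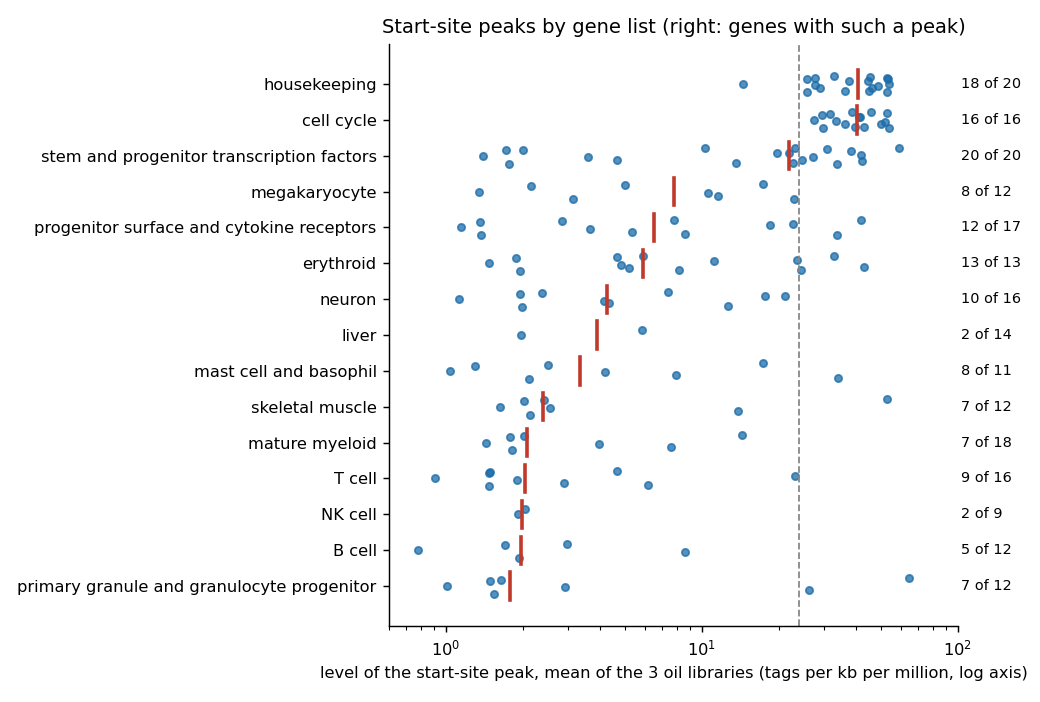
Each point is the start-site peak of 1 gene (tags per kb per 1000000, log axis, mean of the 3 oil libraries), grouped by gene list and ordered by the list median, drawn as a red bar. The dashed line is the median of all genes with a start-site peak, 23.9, and figures at the right give the genes with such a peak. Cell cycle genes and all housekeeping genes but Rab7, at 14.5, lie right of the line. Lymphoid genes lie left of it, with Gata3 at 23.2 the nearest.

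Summed distal tags singled out loci with dense clusters of peaks. After Runx1 came the nuclear long non-coding RNA Neat1 with 191.7, 180.7 and 175.2 tags per 1000000 in oil 1, oil 2 and oil 4, from 37 distal peaks. The chaperone gene Hspa8 followed with 149.0, 160.7 and 191.4, the least even of the 10 leading genes, with an SD of 21.9 around a mean of 167.1. Others among the 10 were Ier2, an immediate early gene (163.4 ± 3.32), Tex14 (159.7 ± 4.02), Zfpm1 (158.05 ± 6.62), the 14-3-3 gene Ywhaz (146.5 ± 8.99), Ptma (145.1 ± 5.46) and Pisd-ps3 (133.5 ± 6.72). The order among Hspa8, Ier2, Tex14 and Zfpm1 was within the spread of the libraries. The top 1% of genes (201) took 11.6% of distal tags within 100000 bp. Of the 10, Runx1 and Zfpm1 are in the stem and progenitor factor list, and Ywhaz is in the housekeeping list.

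By start-site level the leading genes were others. After Rn45s, Pisd-ps3 and Hjurp came Npc2, a cholesterol carrier of lysosomes (67.6 ± 4.95), the transcription factor Sp1 (67.2 ± 4.89), Suco (67.1 ± 5.61), Vcpip1 (67.1 ± 6.70), C330013E15Rik (66.9 ± 6.35), Tarbp2 of the microRNA pathway (66.9 ± 4.85) and the mitochondrial pyruvate carrier Mpc2 (66.8 ± 5.46). These last 7 differed by less than 1 SD. Hjurp and these 7 all lie on chromosomes 1, 12 and 15, where start-site levels as a whole were higher, as described below. The part of this in the ranking was not tested. Tarbp2 was credited with no distal peak within 100000 bp, and C330013E15Rik and Mpc2 with 1 each. Peaks nearer to the start of another gene are not counted here.

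Levels at start sites differed by chromosome (the plot by chromosome). For peaks within 100 bp of the start of protein-coding genes, the upper quartile of level was 50.1, 47.9 and 43.3 in oil 1, oil 2 and oil 4 on chromosomes 1, 8, 12, 15 and 16 as 1 set (2138 peaks). On the other 14 autosomes it was 40.1, 38.9 and 35.5 (7233 peaks), and on X 30.5, 30.3 and 29.1 (278 peaks). By single chromosome the first set ran from 45.98 to 48.0 and the other autosomes from 36.6 to 39.4, with no overlap. The ratio of the sets was 1.23 ± 0.0142 and that of X to the other autosomes 0.786 ± 0.0303. Both the measure and the set were chosen after the values were seen, so this is a description without a test.

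The difference ran along whole chromosomes. Cut into 4 equal lengths, of which those with at least 30 such peaks were kept, the 5 chromosomes gave 18 values from 43.2 to 50.8 with a median of 45.9. The other autosomes gave 55 values from 34.7 to 43.8 with a median of 38.5, so that only the extremes touched. X gave 29.4 to 30.2 in its 4 lengths. Distal peaks were also denser on the 5 chromosomes, 64.4 per Mb against 45.1, with values of 54.6 to 84.4 per chromosome against 28.7 to 78.6, where chromosome 11 had 78.6 without a raised start-site level. The median level of those distal peaks was lower, 2.14 against 2.35. A gain of chromosome copies in some or all cells and more open chromatin per copy cannot be told apart in these tags, and no DNA input was used here. Neither start-site levels nor sums of distal tags of genes named above were adjusted for the difference between chromosomes. Genes on these chromosomes include Runx1 and Zfpm1, both among the leaders by distal tags, and Calr.

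**Figure D5:**
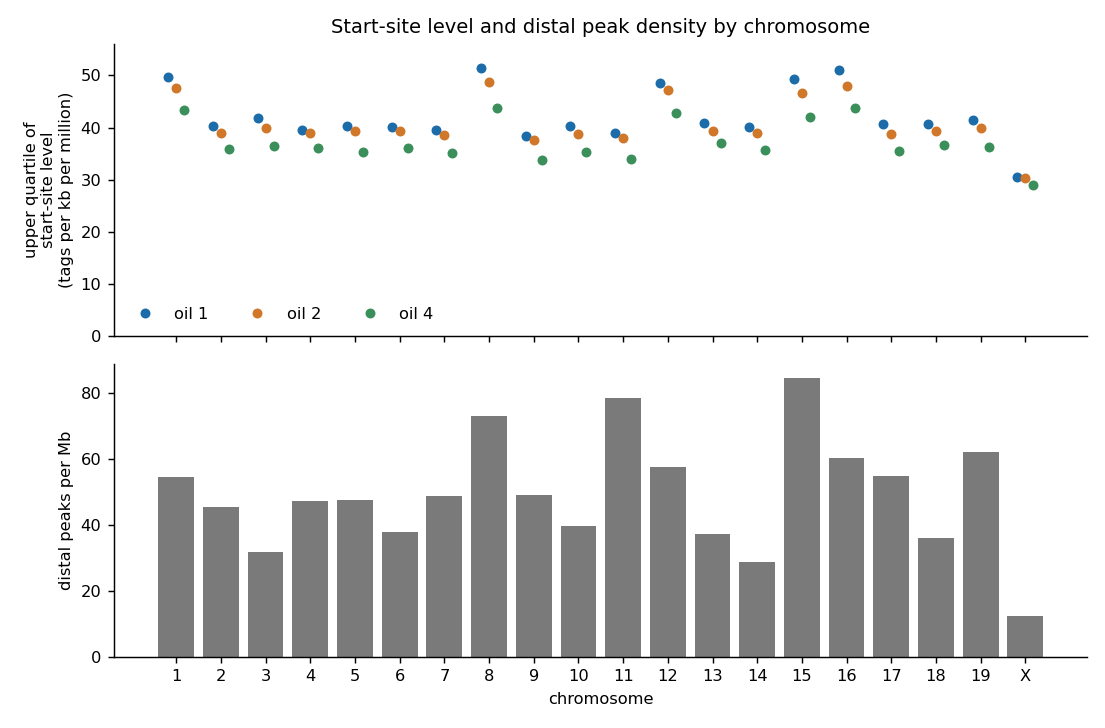
Top, upper quartile of the level of peaks within 100 bp of protein-coding start sites by chromosome (tags per kb per 1000000, axis from 0), 1 point per oil library. Bottom, distal peaks per Mb. Chromosomes 1, 8, 12, 15 and 16 lie at means of 45.98 to 48.0, the other autosomes at 36.6 to 39.4 and X at 30.0, and oil 4 is the lowest library on each.

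Motif letters differed between promoters and distal peaks. Only some of them, the CTCF core above all, differed much between high and low distal peaks. Windows of 200 bp at peak midpoints were searched on both strands and set beside all 13237130 such windows of the genome. The factors of blood progenitors were searched as TGTGGT for RUNX, GAGGAAGT for PU.1, AGATAAG for GATA, TTGCNNAA for CEBP and GGCNGTT for MYB. AP-1 was searched as TGANTCA, IRF as GAAANNGAA, and E-boxes as CAGCTG, read by factors such as TAL1 and E proteins, or as CACGTG, read by MYC and its partners. Factors of general promoters were searched as CCGGAAGT for ETS, TGACGTCA for CRE, GGGGCGGGG for SP/KLF, GCGCATGCG for NRF1, CCAATCNG for NF-Y and AAGATGGCG for YY1. The CTCF core was searched as well, and so were AGATAA, which lies within the GATA spelling, and TGTGGTTT, which contains the RUNX spelling, both added after values were seen. Windows within 100 bp of a start site were 64.9% G+C and held SP/KLF in 20.5% (0.334% of genome windows), ETS in 7.81% (0.121%), NF-Y in 7.90% (1.55%), CRE in 3.23% (0.105%) and NRF1 in 2.93% (0.0295%). Distal windows were 49.7% G+C and held RUNX in 20.95% (13.7% of genome windows), GATA in 7.22% (2.94%), PU.1 in 4.25% (1.203%), E-box CAGCTG in 13.6% (7.14%) and CTCF in 4.94% (0.0932%). Distal AP-1 was at 7.37% (5.94%), and CEBP at 6.67% lay below its genome share of 9.38%, as did IRF, at 5.33% against 7.99%. Several of the letters are rich in G+C or in A+T, and shares move with base composition.

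Distal peaks were ordered by level and cut into 10 equal bins. The CTCF core rose from 1.28% in the lowest bin to 11.9% in bin 9 and 10.6% in the highest. CTCF is the insulator protein that anchors chromatin loops. Distal peaks with the core (6036) had median levels of 5.17, 5.18 and 4.89, and those without it 2.24, 2.23 and 2.23, a ratio of 2.27 ± 0.0733. GATA went from 5.18% in the lowest bin to 9.80% in the highest, and distal peaks with it stood 1.21 ± 0.0238 times above those without. RUNX went the other way, from 22.1% in the lowest bin to 18.1% in the highest, and peaks with it were at 0.962 ± 0.00150 of those without. For AP-1 the shares were 8.48% and 6.62%, and for PU.1 4.77% and 4.20%. In the highest bin 38.7% of windows held at least 1 of RUNX, PU.1, GATA, CEBP, AP-1 and ETS, hardly different from the 39.7% of the lowest. With the stricter RUNX spelling TGTGGTTT the shares were 2.63% and 2.00%. The spellings frequent at start sites also had higher shares in the highest than in the lowest bin, with 3.46% against 1.07% for SP/KLF, 1.03% against 0.360% for ETS, 0.736% against 0.327% for CRE, 0.491% against 0.0818% for NRF1 and 0.483% against 0.139% for YY1. The G+C content of the windows was 52.7% in the highest bin and 49.4% in the lowest, and its part in these shares was not tested. Letters in a window do not show that a factor is bound.

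The libraries were alike at nearly all peaks. Among 166206 peaks with a mean of at least 20 tags, 1 oil library lay at least 4-fold above or below both others at 5 peaks (0.00301%). Of these, 2 lie in introns 14 and 17 of Uba7, which encodes the enzyme that activates ISG15. The first (chr9:107979063-107979580) had 3.00, 0.436 and 3.41 in oil 1, oil 2 and oil 4, and the second (chr9:107979760-107979974) had 3.36, 0.596 and 4.36, so oil 2 alone was low at both. The other 3 were at Mir375, with 0.374 in oil 1 against 2.29 and 1.62, in intron 3 of Ubtf, with 0.435 in oil 2 against 1.87 and 1.93, and in intron 3 of Cacna1b, with 0.297 in oil 4 against 1.27 and 1.36. All 5 were drops of 1 library, and none of them was a peak of high level. At 2-fold or more, 557 peaks had 1 library apart, 209 of them oil 1, 186 oil 2 and 162 oil 4.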

How the data were processed

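ATAC-seq tags of 3 oil libraries were described. The authors mapped reads to mm10 with Bowtie2, called and merged peaks and counted tags with HOMER. The deposited table holds estimated counts (expected counts, in steps of 0.5 per mate, at most 3 per position, not normalized) and a peak score, which served as a filter alone. Annotation class, distance to the TSS and nearest gene are those of the table. Its 3 tamoxifen columns were not used. Levels are tags per kb per 1000000 total tags from the file header, with mean and SD over libraries.

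Peak classes were checked against the RefSeq annotation of GRCm38 and were the same at 97.6% of 175738 peaks. Motifs and genome shares were computed from that reference in Python 3.11.15 (numpy 2.4.6, pandas 2.3.3). TMM factors for an alternative came from edgeR 4.0.16 on rounded counts. The rule on single libraries was tested on simulated data.

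Named genes followed a rule: the 5 markers, the 10 leading genes by distal sum and by start-site level, the 2 highest and 2 lowest of each list, the 10 highest peaks, and peaks with 1 library apart. A few list members moved by the choice of start-site peak were named besides. Gene lists, motifs and markers were chosen with earlier results of these data known. Alternatives varied the denominator, filters, peak list, distances and libraries. A few named genes and 1 sequence are not reported here.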

Additional observations from a re-analysis of the deposited data

How the results depend on the processing

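Denominator, TMM scaling and restriction to autosomes left each within-library ratio within 1 SD of its value, by construction for the first 2. Of 127 alternatives over 15 values, 90 stayed within 1 SD (or, for counts, within 1.5 times), 37 moved and 0 reversed; those that left out 1 library were among the 90. Restriction to peaks at or above the median peak score moved, besides other marker percentiles, promoter-TSS over intergenic from 7.14 to 4.55, start site over distal from 12.1 to 6.07, the Kit percentile from 80.3 to 77.3, the Runx1 rank from 1 to 2 and the share of tags in the top 10% from 44.8% to 34.9%. With peak width not divided out these were 5.88, 9.37 and, for Kit, 91.4, and the chromosome ratio went from 1.23 to 1.198. Summed tags within 3000 bp put Kit at 93.5. In the oil peak list alone, start site over distal was 11.1, the top 10% share 43.3% and the GATA ratio of highest to lowest distal bin 2.02 in place of 1.82. Within 50000 bp the mean rank of Runx1 was 2.33. Peaks within 1000 bp of a start gave a chromosome ratio of 1.19. The GATA ratio was 1.45 in whole peaks and 1.49 with the letters AGATAA. Peaks with 1 library apart numbered 14 at 3-fold, 0 at 8-fold, 12 with means of at least 10 tags and 1 with at least 50. The mean r of 0.977 was 0.979 with at least 20 tags and 0.945 as Spearman's rho. No paired analysis was possible because the oil libraries were described alone and no groups were compared.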
